A study of Homo sapiens with 20 samples.

Results

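The regions described here are places where a binding region was called after AU-15330 and not in the matched DMSO control, and where this happened in 3 or more of 10 treated and control pairs. Each member was chosen by the calls themselves: for every pair, the AU-15330 regions that shared no base with a region of their own DMSO list were taken as gained, the gained regions of all pairs were merged over chromosomes 1 to 22 and X, and a merged region was kept where at least 3 pairs fed it. The rule left 324 members out of 65111 merged gained regions, or 0.498%. They held 1019 of the 68949 gained list entries, and the 20 lists together covered 252563 merged regions.

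The lists came from chromatin immunoprecipitation sequencing (ChIP-seq) in 4 established human cell lines. NCI-H526 and NCI-H1048 are small cell lung cancer lines of the POU2F3 subtype (SCLC-P), and MM1.S and NCI-H929 are multiple myeloma lines. Each of the 10 pairs set 1 DMSO library against 1 library of the same line and antibody treated with AU-15330 at 1 µM, for a time the labels give as 4 to 6 h. The titles of the treated HA libraries of NCI-H1048 give 6 h. The study's captions give 6 h for the ChIP-seq heatmaps of NCI-H1048, MM1.S and NCI-H929, and no time for those of NCI-H526. The pairs were POU2F3 and HA-tagged POU2F3 in both lung lines, HA-tagged POU2AF2 in NCI-H526, an HA pair in NCI-H1048 whose label names no tagged protein, and POU2AF1 and IRF4 in both myeloma lines. Per the study's methods, the HA-tagged proteins were expressed from lentiviral degron constructs in Cas9-expressing cells. Guide RNAs were used there to knock out the endogenous gene. The HA-POU2F3 and HA-POU2AF2 lists thus came from engineered cells and an introduced copy. For the HA pair whose label names no protein, the titles name no construct either. With 1 library per condition there is no replicate error, so no difference below carries a test. The intervals given are exact binomial (Clopper-Pearson) 95% intervals, which cover counting error only, and the regions of a list share a library and are not independent.

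AU-15330 is a degrader that brings SMARCA2, SMARCA4 and PBRM1 to a ubiquitin ligase. SMARCA2 and SMARCA4 are the ATPase motors of the mSWI/SNF complexes, which slide and evict nucleosomes and keep enhancers open. POU2F3 is an octamer-binding factor that sets the tuft cell programme and works with the coactivator POU2AF2, while POU2AF1 is the corresponding coactivator in B cells and plasma cells, where IRF4 is a lineage factor. A narrow peak list records where reads pile up beyond a local background, and it measures neither occupancy below the call threshold nor expression.

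Gained regions seldom recurred. Of 37742 merged regions that were retained in some pair (called in AU-15330 and overlapping the DMSO list), 8583 were retained in 3 or more pairs, or 22.7% (95% interval 22.3 to 23.2). Of 209107 merged regions that were lost in some pair (called in DMSO alone), 37263 were lost in 3 or more, or 17.8% (17.7 to 18.0). The same share for gained regions was 0.498% (0.445 to 0.555). A further 3125 gained regions were fed by exactly 2 pairs and 61662 by 1 pair. Within the members, 291 were fed by 3 pairs, 25 by 4, 7 by 5 and 1 by 6, and none by more. A base common to gained regions of 3 or more pairs existed in 266 of the 324, and the others were chained by overlaps between different pairs.

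One pair fed most of the members. The NCI-H1048 POU2F3 pair, whose titles name no protein and whose antibody was that of the NCI-H526 POU2F3 pair, fed 278 of 324 (85.8%). It was also the pair whose treated list was longer than its control list, with 51406 AU-15330 regions against 38034 in DMSO, and 67.3% of its treated entries were gained. It gave 34602 of the 68949 gained entries of all pairs, and 0.806% of its own gained entries lay in members. Left out, it reduced the members from 324 to 71, while leaving out NCI-H929 POU2AF1 gave 188 and leaving out HA-POU2F3 in NCI-H526 gave 205. The NCI-H929 POU2AF1 pair fed 158 members and had 31.2% of its treated entries gained. HA-POU2F3 in NCI-H526 fed 139 members (41.9% of entries gained), MM1.S POU2AF1 fed 126 (38.9%), MM1.S IRF4 fed 110 (49.9%) and HA-POU2F3 in NCI-H1048 fed 103 (73.7%). The remaining pairs fed fewer members. POU2F3 in NCI-H526 fed 35 (15.3% gained), the unnamed HA pair of NCI-H1048 fed 33 (72.1%), NCI-H929 IRF4 fed 27 (70.7%) and HA-POU2AF2 in NCI-H526 fed 5 (83.8%). The last 3 of these also had the shortest treated lists, from 1326 to 2663 entries. As a share of each pair's own gained entries, those in members were 1.28% for POU2F3 in NCI-H526 and 3.45% for the unnamed HA pair. The share was 1.93% for NCI-H929 IRF4 and 0.224% for HA-POU2AF2 in NCI-H526.

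**Figure D1:**
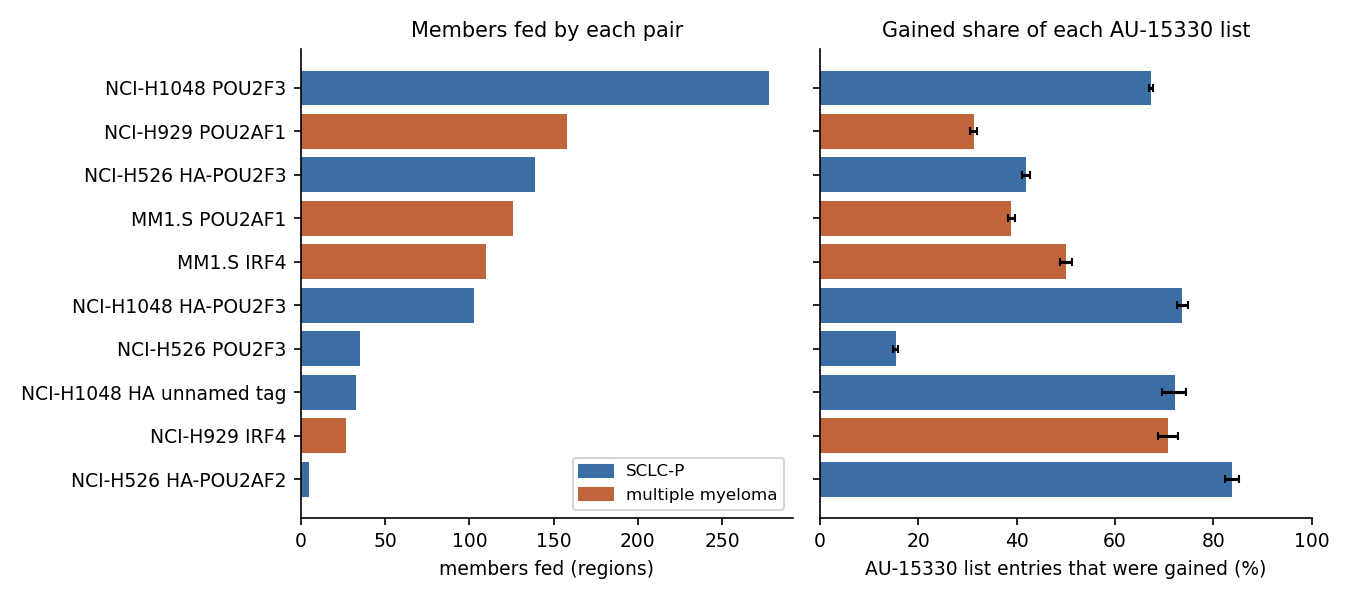
Members fed by each pair (left, number of regions) and the share of each AU-15330 list that was gained (right, percent, with exact 95% binomial intervals), coloured by tumour. NCI-H1048 POU2F3 fed 278 of 324 members, whereas HA-POU2AF2 in NCI-H526 fed 5 although 83.8% of its treated entries were gained.

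Members crossed lines, tumours and antibodies, which the need for 3 pairs in part requires. Both tumours fed 276 of them, SCLC-P pairs alone fed 45 and myeloma pairs alone fed 3. By line, 8 were fed from all 4 lines, 194 from 3, 119 from 2 and 3 from 1. By what the antibody recognised (POU2F3, HA, POU2AF1 or IRF4), 125 members were fed through 2 targets, 190 through 3 and 9 through all 4, and none rested on a single target. The rule sets much of this. POU2F3, POU2AF1 and IRF4 each had fewer than 3 pairs, so only HA could have fed a member alone. Each myeloma line also had fewer than 3 pairs. With 6 SCLC-P and 4 myeloma pairs, most combinations of 3 pairs mix the tumours. The most common combination, 41 members, was NCI-H1048 POU2F3 with the POU2AF1 pairs of both myeloma lines. NCI-H1048 POU2F3 and NCI-H929 POU2AF1 fed 137 members together, which is 49.3% of the members of the former and 86.7% of those of the latter. These shares were close to those over all members, of which the pairs fed 85.8% and 48.8%.

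The sequences of 8 named members are shown first as chosen examples, and their mix does not match that of all members. Each is a window centred on the summit of the highest fold, 5′ to 3′ on the plus strand of GRCh38/hg38. In the first 3, capitals mark a short unit that recurs (GGCTGGC in the first, GGAAT in the next 2, either strand). In the next 2 they mark the CTCF pattern (CCA, any 2 bases, AG, any 2 bases, GGC), in the sixth the octamer core TTTGCAT, and in the last 2 the Sp/KLF pattern GGGCGGG.
chr16:33337668-33337788, near TP53TG3B: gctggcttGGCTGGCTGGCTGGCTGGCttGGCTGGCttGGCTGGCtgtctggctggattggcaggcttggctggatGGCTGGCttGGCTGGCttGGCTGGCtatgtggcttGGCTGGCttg
chr4:49140586-49140706, short arm beside the centromere: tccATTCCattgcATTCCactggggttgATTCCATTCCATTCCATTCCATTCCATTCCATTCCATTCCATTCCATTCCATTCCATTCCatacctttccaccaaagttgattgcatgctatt
chr20:61746-61866, near the chromosome end: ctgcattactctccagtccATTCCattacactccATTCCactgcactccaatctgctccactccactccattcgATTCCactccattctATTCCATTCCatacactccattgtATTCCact
chr6:37654052-37654172, MDGA1 intron: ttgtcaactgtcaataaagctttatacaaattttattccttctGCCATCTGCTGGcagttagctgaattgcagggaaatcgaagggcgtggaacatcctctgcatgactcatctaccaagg
chr12:130031713-130031833, intergenic, nearest TMEM132D: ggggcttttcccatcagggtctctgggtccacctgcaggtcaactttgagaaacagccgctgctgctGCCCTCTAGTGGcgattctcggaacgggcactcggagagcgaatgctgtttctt
chr17:50024214-50024334, intergenic, nearest DLX3: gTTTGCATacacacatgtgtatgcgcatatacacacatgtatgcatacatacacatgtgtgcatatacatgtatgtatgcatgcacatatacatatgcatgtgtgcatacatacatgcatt
chr11:123062429-123062549, HSPA8 promoter: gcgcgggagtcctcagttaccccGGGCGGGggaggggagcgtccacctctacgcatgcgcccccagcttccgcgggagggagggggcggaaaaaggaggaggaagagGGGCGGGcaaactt
chr2:102736846-102736966, TMEM182 and MFSD9 promoter: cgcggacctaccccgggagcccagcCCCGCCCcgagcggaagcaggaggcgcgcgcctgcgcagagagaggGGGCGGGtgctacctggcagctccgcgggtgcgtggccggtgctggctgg

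Promoters held 163 of the 324 members (50.3%, 44.7 to 55.9), where a promoter is a region within 1 kb of a transcription start site (TSS) of a protein-coding gene. Introns held 43 (13.3%), exons 6 (1.85%) and intergenic sequence 112 (34.6%, 29.4 to 40.0). The promoter share rose with recurrence among gained regions, from 15.7% of those fed by 1 pair to 40.4% of those fed by 2. Of the regions retained in 3 or more pairs 72.4% were promoters, and of those lost in 3 or more 30.1%. With all pairs the members lay between these sets, but without NCI-H1048 POU2F3 the promoter share was 29.6% of 71 members, close to that of the lost regions. At a minus log10 q of at least 5 it was 20% of 30 members. Above the threshold the share turned: of the 33 members fed by 4 or more pairs, 10 were promoters (30.3%, 15.6 to 48.7) and 21 were intergenic (63.6%, 45.1 to 79.6). Promoter members were mostly in CpG-rich sequence, with 143 of 163 meeting the CpG-island-like criteria (GC of at least 50%, observed over expected CpG of at least 0.6, width of at least 200 bases) against 14 of the other 161. The median GC content was 57.9% over the members, 53.3% over the 2-pair regions, 40.0% over the 1-pair regions and 63.8% over the recurrently retained ones. The median width was 471 bases against 400 and 233 in the 2-pair and 1-pair regions, and a wider region reaches more features and more lists.

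**Figure D2:**
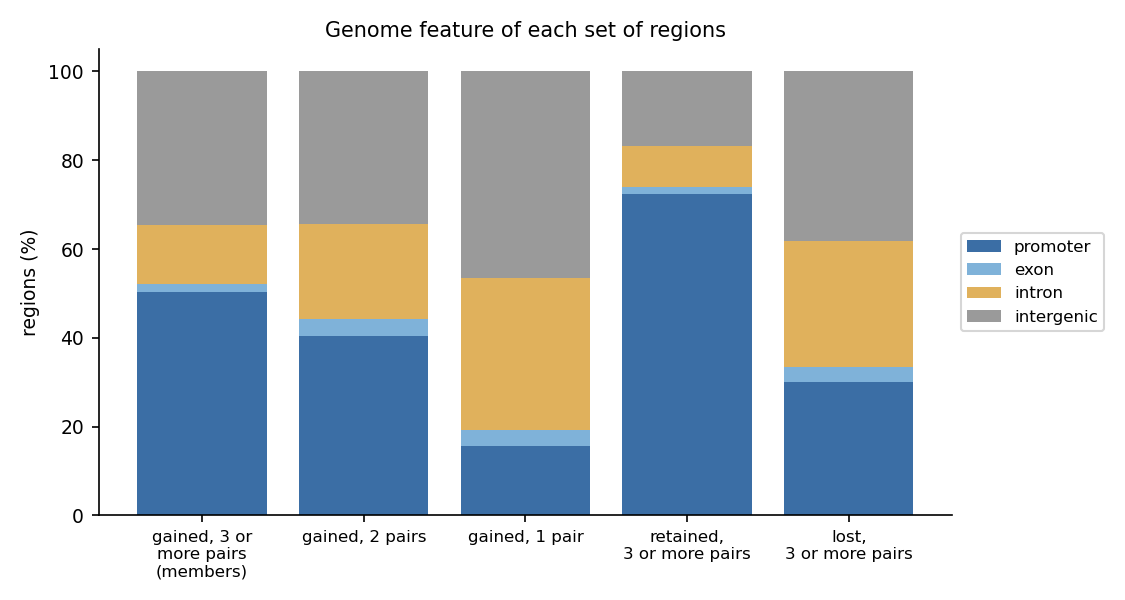
Share of regions (percent) that lie at promoters, exons, introns or in intergenic sequence, for gained regions by the number of pairs that fed them and for regions retained or lost in 3 or more pairs. Promoters made up 50.3% of the members, 15.7% of 1-pair gained regions and 72.4% of recurrently retained regions.

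Nearly all members were called somewhere without treatment. Of the 324, 284 (87.7%, 83.6 to 91.0) overlapped a DMSO region of a pair that did not feed them, and 250 overlapped one of a pair from a line that did feed them. The share was 77.9% for 2-pair and 32.5% for 1-pair gained regions. Members were held by up to 7 other DMSO lists, with a median of 3, and 192 were in 3 or more. Among the 297 members that NCI-H929 IRF4 did not feed, 211 were in its DMSO list of 65174 regions. POU2F3 in NCI-H526 held 172 of 289 in its DMSO list of 89850, MM1.S POU2AF1 held 124 of 198, and HA-POU2AF2 in NCI-H526 held 103 of 319. Counts per list were not made for 2-pair or 1-pair regions. At 161 members (49.7%, 44.1 to 55.3) another pair was called in both DMSO and AU-15330. The region was thus gained in some lists and retained in others. Another pair was likewise called in both at 39.4% of 2-pair and 12.5% of 1-pair gained regions. Of the members, 143 overlapped a region among the 37263 lost in 3 or more pairs. For the 8583 regions retained in 3 or more pairs, 42 members did. These sets differ in size, and such overlaps were not counted for 2-pair or 1-pair regions. The counts therefore do not place the members nearer to either set.

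Promoter members were the more widely shared. Of 163 promoter members, 160 were in another DMSO list (98.2%), with a median of 4 lists, against 124 of the 161 others (77.0%) with a median of 2. In introns the share was 69.8%, or 30 of 43.

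Many members also lay close to binding that their own pair had before treatment. Of the 1019 gained entries in members, 247 (24.2%) were within 1 kb of a region of their own DMSO list, against 16.0% of entries in 2-pair regions and 8.18% in 1-pair regions. The median distance was 10.7 kb in members and 21.6 kb in 1-pair regions. For promoter members 32.4% of entries were within 1 kb, and for intron members 8.40%. The merged extent of 81 members touched a DMSO region of a pair that fed them, through the part contributed by another pair. Requiring that no own DMSO region lie within 1 kb left 183 members, of which 33.9% were promoters.

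**Figure D3:**
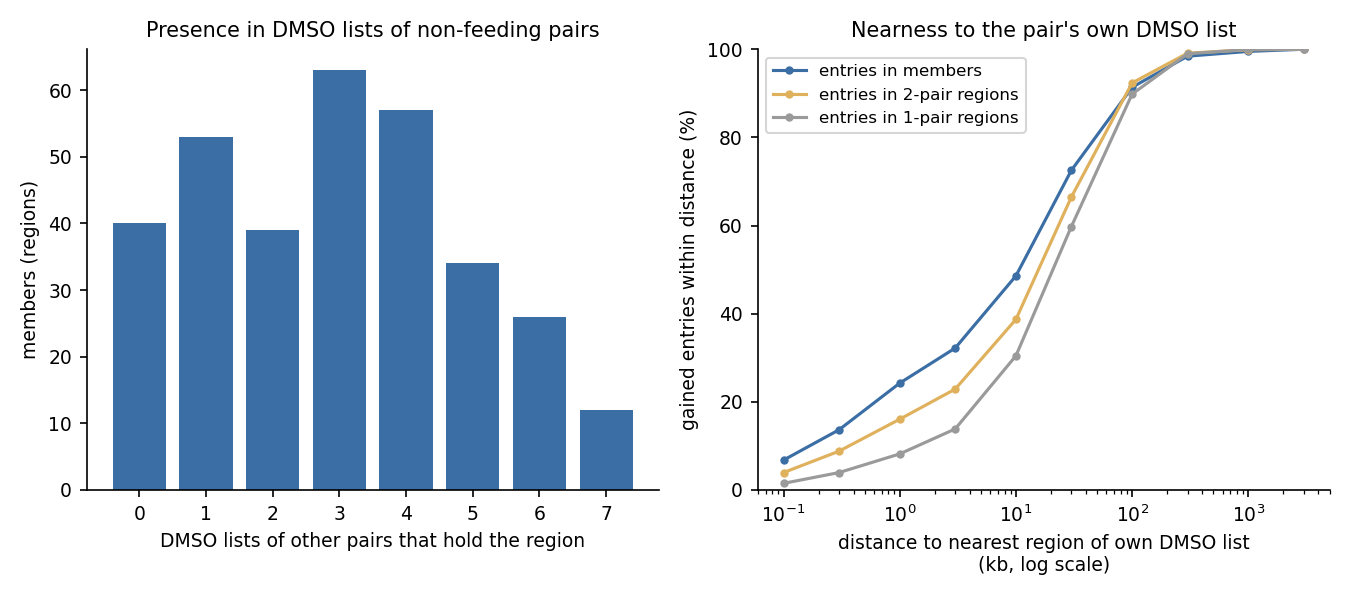
Members by the number of DMSO lists of non-feeding pairs that hold them (left, number of regions) and the cumulative share of gained entries (right, percent) within a distance of the pair's own DMSO list (kb, log scale). 40 members were in no other DMSO list and 12 were in 7, and 24.2% of member entries lay within 1 kb of their own list.

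The calls themselves were of middling strength for their lists. These values were used by the rule and are a description. The median fold over local background was 4.35 in member entries (range 2.41 to 18.3), 4.37 in 2-pair and 4.01 in 1-pair entries, and the median minus log10 q was 4.66, 4.86 and 3.75. Within its own treated list a member entry stood at a median fold percentile of 49.9. The summit pileup could be worked out for 986 entries, all but the 33 of the unnamed HA pair, and its median was 17 fragments over a median local background of 3.06. NCI-H1048 POU2F3 gave the strongest entries, with a median fold percentile of 63.7 and 78.9% at a minus log10 q of at least 5, whereas the value was 12.7% for MM1.S IRF4 and 28.3% for MM1.S POU2AF1. The highest fold of any member, 18.3 with a minus log10 q of 78.3, was at the KBTBD6 promoter (chr13:41132695-41133105), which was singled out after its values were seen. KBTBD6 is a substrate adaptor of a cullin ubiquitin ligase.

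Sequence close to centromeric satellite arrays was more frequent among the members than in the other sets. Members within 1 Mb of a centromeric satellite array numbered 21 (6.48%, 4.06 to 9.74), against 1.70% of 2-pair, 0.795% of 1-pair, 0.792% of recurrently retained and 0.427% of recurrently lost regions. Arrays were located as the longest run of 50 kb windows on each chromosome in which at least 80% of 20-base words recurred. Within 5 Mb there were 45 members (13.9%), of which 9 were promoters (20%), compared with 154 promoters among the 279 others (55.2%). Within 100 kb of an assembly gap there were 23 (7.10%), against 0.845% of 1-pair regions. Of the 33 members fed by 4 or more pairs, 6 were within 1 Mb of an array (18.2%, 6.98 to 35.5) and 9 within 100 kb of a gap (27.3%).

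Exact multi-copy sequence was a smaller part. In 28 members (8.64%, 5.82 to 12.2) the 50-base words occurred on average in 2 or more places of the assembly, beside 5.79% of 2-pair, 7.25% of 1-pair, 7.47% of recurrently lost and 3.13% of recurrently retained regions and 8.95% of all merged DMSO regions. The interval held the 1-pair, lost and DMSO shares and lay above the retained one. The share was 14.1% of the 71 members left without NCI-H1048 POU2F3, and 26.7% of the 30 left at a minus log10 q of at least 5. Of the 28, 25 were intergenic. The highest mean copy number was 269. A stretch of 50 bases from such words cannot be placed at 1 site by its sequence alone. The study's reads were paired-end and longer than these words, so some may still be placed. The part this plays in the calls was not tested. Only 4 members lay within 1 kb of a transfer RNA gene, and none had over 10% of its sampled 24-base words in the mitochondrial genome.

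**Figure D4:**
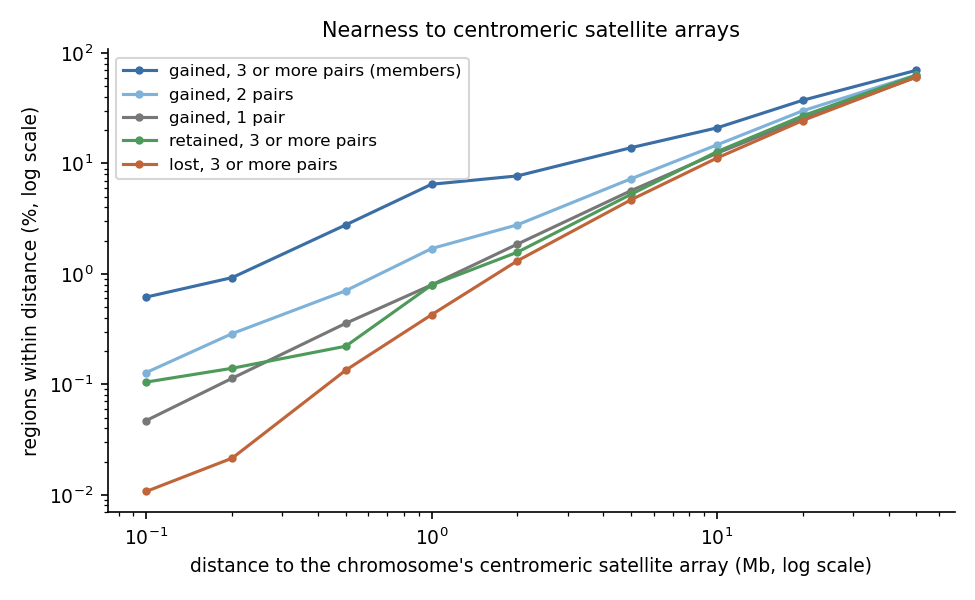
Cumulative share of regions (percent, log scale) within a distance of their chromosome's centromeric satellite array (Mb, log scale) for 5 sets of regions. Within 1 Mb lay 6.48% of the members and 0.795% of 1-pair gained regions, and the sets drew together at larger distances.

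Groups of 3 or more members with neighbours at most 1 Mb apart were found near arrays and away from them. On chromosome 20, 8 members lay between 28557629 and 30425054, none at a promoter and all within 1.72 Mb of the satellite array. On chromosome 4, 5 members fell within 58.9 kb, from 49091705 to 49150648. Away from the arrays, 4 members between 7281415 and 7584246 on chromosome 17 were all promoters, at SLC2A4, NEURL4, TMEM95 and MPDU1. Groups of 3 lay on chromosomes 1, 3, 6, 9, 19 and 22, each with 1 to 3 promoters. The pentamer GGAAT or its reverse complement ATTCC, the unit of human satellites 2 and 3, covered 20% or more of 9 members (2.78%, 1.28 to 5.21), against 0.416% of 2-pair, 0.0730% of 1-pair and 0.0134% of recurrently lost regions. All 5 chromosome 4 members were among the 9, with 58.4% to 65.7% of their bases in the pentamer. The strongest of them, the second sequence above (chr4:49140506-49140723), was fed by 4 pairs with folds of 3.85 (NCI-H1048 POU2F3), 4.66 (NCI-H929 POU2AF1), 5.16 (NCI-H929 IRF4) and 5.20 (NCI-H1048 HA-POU2F3). Each of its feeding entries lay 632 to 670 bases from its own DMSO list. The member near the end of chromosome 20 (chr20:61531-62216) was fed by 5 pairs with folds of 3.95 to 4.79, and 35.7% of its bases were in the pentamer.

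The member fed by most pairs was called in every treated list. At chr16:33337620-33338041, intergenic and 22.8 kb from TP53TG3B, folds in the 6 feeding AU-15330 lists were 4.96 (NCI-H526 POU2F3), 4.71 (NCI-H1048 POU2F3), 5.17 (unnamed HA pair), 6.49 (NCI-H1048 HA-POU2F3), 3.91 (NCI-H526 HA-POU2F3) and 6.40 (MM1.S IRF4). In the other 4 pairs it was called both before and after, with folds in DMSO and AU-15330 of 6.97 and 6.14 (NCI-H929 POU2AF1), 7.16 and 5.19 (NCI-H929 IRF4), 4.62 and 4.42 (MM1.S POU2AF1) and 5.35 and 4.53 (NCI-H526 HA-POU2AF2). The treated folds of the feeding and of the retained pairs overlapped. Its 50-base words occurred on average in 2.26 places. The next in rank, chr20:29507207-29507524, was fed by 5 pairs with folds of 5.10 to 8.04 and was in the DMSO list of the unnamed HA pair with a fold of 4.88.

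Single-copy regions with many pairs included a pair of neighbours on chromosome 17. The ITGA3 promoter (chr17:50055582-50056189), of a gene for a laminin-binding integrin chain, was fed from all 4 lines. Its treated folds were 5.85 (NCI-H1048 POU2F3), 4.98 (NCI-H929 POU2AF1), 3.41 (NCI-H526 HA-POU2F3), 3.80 (MM1.S POU2AF1) and 4.67 (MM1.S IRF4). In 3 of these pairs the merged extent touched the pair's own DMSO list, with DMSO folds of 4.13, 5.33 and 3.98, and the MM1.S IRF4 entry lay 8 bases from it. Close to it, chr17:50023400-50025235, the widest member at 1836 bases and 28.2 kb from DLX3, a homeobox factor of epithelia, was fed by 5 pairs with folds from 4.50 to 6.82. No other pair's DMSO list held it, although its extent touched the DMSO list of the feeding HA-POU2F3 pair of NCI-H1048 (fold 3.46). Its summit sequence, the sixth above, is a run of short alternating TG and CA units that holds 1 octamer core.

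Outside promoters, the MDGA1 intron member (chr6:37653832-37654267) combined the CTCF pattern with high folds of 11.9 (NCI-H1048 POU2F3), 6.62 (NCI-H526 HA-POU2F3) and 5.78 (MM1.S POU2AF1). MDGA1 is a synaptic adhesion protein. The same region was called in DMSO and not after treatment with POU2F3 in NCI-H526 (DMSO fold 7.86) and HA-POU2AF2 in NCI-H526 (7.53), so within 1 line it was gained in 1 pair and lost in 2. An intron of RAD51B, a homologous recombination gene, was fed by 3 SCLC-P pairs with folds of 9.20, 5.60 and 4.95, and it too was a DMSO-only region with POU2F3 in NCI-H526 (5.93). PODXL, which encodes a sialomucin, held an intron member with folds of 5.03, 5.15, 4.87 and 3.92 in its 4 feeding pairs. NR1D1, a nuclear receptor of the circadian clock, held another, with folds of 4.70, 4.32, 5.46 and 3.49.

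In 37 members no DMSO list had a region at all. Of these, 22 were intergenic, 12 were in introns and 3 were promoters, 29 were fed by both tumours and 34 were fed by NCI-H1048 POU2F3. Repeated words were found in 7, and 7 lay within 5 Mb of a satellite array. The first by rank were chr15:20317103-20317723, 0.567 Mb from an array, and chr15:50876853-50877307, 31.4 kb from AP4E1. Next came chr12:130031644-130032030, the fifth sequence above, with folds of 4.46 (NCI-H1048 POU2F3), 8.52 (NCI-H929 POU2AF1) and 6.12 (MM1.S POU2AF1).

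The octamer core, the recognition sequence of the POU2F family, was sparse at the members. It was found within 100 bases of the summit, on either strand, at 17 of 324 (5.25%, 3.09 to 8.27), beside 10.2% of 2-pair, 14.6% of 1-pair, 17.9% of recurrently retained and 36.5% of recurrently lost regions, and 27.3% of all merged DMSO regions. The window was equally wide in all sets. Promoters held few octamers in every set, so each position was also read alone. Away from promoters the share was 9.94% of 161 members (5.79 to 15.6), against 15.5% of 2-pair and 16.4% of 1-pair gained regions, 50.1% of 2371 retained and 48.7% of 26054 lost regions. The interval of the members held the 2-pair share. Among the 183 members with no own DMSO region within 1 kb, 9.29% had the octamer core at either position. At promoters it was 1 of 163 members (0.613%, 0.0155 to 3.37), against 2.46% of 2-pair and 4.65% of 1-pair gained promoters. Retained promoters had 5.62% and lost promoters 8.24%. The members' interval held the 2-pair share here too. Pair by pair, with both positions together, the gap to other gained entries varied. It was widest in NCI-H1048 POU2F3, with the octamer core at 6.45% of member entries and 20.3% of other gained entries. The shares were 9.29% and 11.03% in NCI-H526 HA-POU2F3, and 3.94% and 5.86% in MM1.S POU2AF1. In NCI-H929 IRF4 the member share was the higher, at 11.1% of 27 entries against 6.62%. The other pairs read this way had lower shares in members.

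Some other patterns differed in share between the members and lost regions. The Sp/KLF pattern was at 97 members (29.9%, 25 to 35.2), near the 35.6% of recurrently retained regions and above 13.4% of lost and 6.65% of 1-pair regions. Among promoters it was at 80 of 163 (49.1%), where the retained and lost sets had 45.2% and 36.4%. The CTCF pattern, part of the motif of the insulator protein CTCF, was at 34 members (10.5%, 7.38 to 14.4), against 3.60% of retained and 3.36% of lost regions. Away from promoters it was at 26 of 161 (16.1%, 10.8 to 22.8), beside 17.2% of 2-pair, 4.54% of 1-pair, 5.78% of retained and 3.50% of lost regions. It held in most pairs taken alone: the CTCF pattern was at 11.5% of the member entries of NCI-H1048 POU2F3 and 7.18% of its other gained entries, 11.9% and 5.29% in NCI-H929 POU2AF1, 13.4% and 4.41% in MM1.S POU2AF1, and 7.14% and 2.30% in NCI-H526 HA-POU2F3. NCI-H929 IRF4 had none in its 27 member entries and HA-POU2AF2 in NCI-H526 none in its 5, beside 0.727% and 0.674% elsewhere. Of the 33 members fed by 4 or more pairs, 1 had the CTCF pattern (3.03%, 0.0767 to 15.8). Away from promoters it was 1 of 23 (4.35%, 0.110 to 21.9). These wide intervals held the shares of all members, of retained and of lost regions. The RUNX pattern AACCACA was at 2.47% of members and 11.9% of lost regions, and the IRF pattern, GAAA on either side of any 2 bases, at 3.09% and 6.41%. The NFY pattern CCAAT, at 24.4%, was near the 22.3% to 26.7% of the other sets, and the ETS pattern CCGGAAGT was at 1.54% against 8.10% of retained regions. The E-box CAGCTG (9.26%) and the AP-1 pattern TGANTCA (2.78%) were searched too. Overlaps between patterns were not removed.

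**Figure D5:**
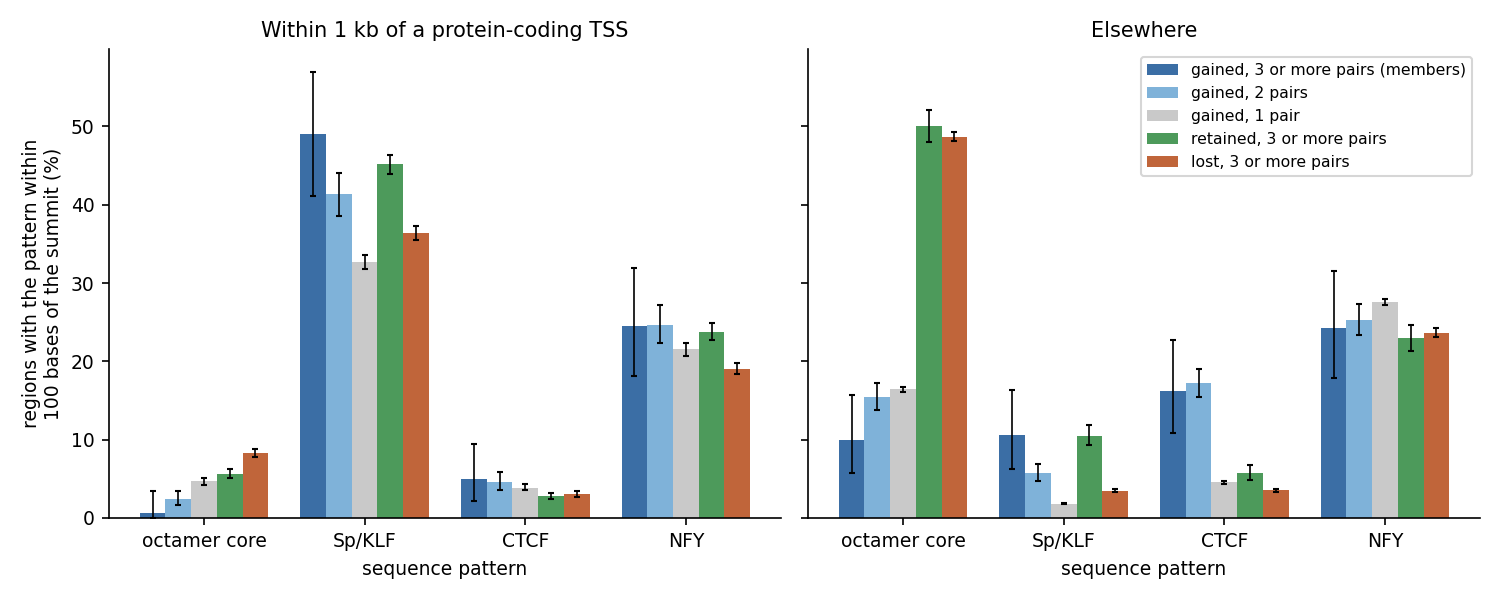
Share of regions (percent, exact 95% binomial intervals) with a sequence pattern within 100 bases of the summit, at promoters (left) and elsewhere (right), for 5 sets of regions. Away from promoters the octamer core was at 9.94% of members and 50.1% of recurrently retained regions, and the CTCF pattern at 16.1% and 5.78%.

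Near genes, 199 protein-coding genes had a TSS within 1 kb of a member, or 0.997% of 19962. Lists of genes were read against that share and against all AU-15330 regions. Of 26 heat shock genes, 3 were reached (11.5%), namely HSPA8 and HSPA1B, which encode Hsp70 chaperones, and FKBP4, an Hsp90 co-chaperone. All 26 had some AU-15330 region within 1 kb and 19 had a recurrently retained one. Of 33 immediate early genes 2 were reached, JUND and KLF10, of 9 genes of the P-TEFb elongation factor and its inhibitors 1 was reached, CDK9, its kinase, and of 85 ribosomal protein genes 1, RPL23A. Of 70 replication-dependent histone genes 1 was reached, H2AC4, and of 240 zinc finger genes on chromosome 19 there were 3, ZNF497, ZNF562 and ZNF567. Some AU-15330 region lay within 1 kb of 97.0% of the immediate early, 100% of the P-TEFb and 97.6% of the ribosomal protein genes. The share was 85.7% of the histone genes, 85.8% of the zinc finger genes and 69.0% of all protein-coding genes. None was reached of 28 mSWI/SNF subunit genes, 26 genes of other remodellers, 35 tuft cell genes, 27 plasma cell genes, 17 housekeeping genes, 1696 small nuclear RNA genes and 53 clustered protocadherins. The shares with some AU-15330 region were, in that order, 96.4%, 100%, 77.1%, 85.2%, 100%, 8.84% and 28.3%. At a share of 0.997%, coding lists of 17 to 53 genes would hold few or none, so these zeros do not set them apart. Small nuclear RNA genes are not protein-coding, and that share does not apply to them.

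The named promoters show how a member can be gained and shared at once. At HSPA8 (chr11:123062024-123063133) the feeding folds were 7.16 (NCI-H1048 POU2F3), 3.10 (NCI-H929 POU2AF1) and 5.22 (NCI-H1048 HA-POU2F3). The NCI-H929 POU2AF1 pair also had a DMSO region in the merged extent, 413 bases from its feeding entry and with a higher fold of 3.49. The promoter was in the DMSO lists of 6 other pairs, and in 3 of these it was also called after treatment, with DMSO and treated folds of 4.68 and 3.91 (NCI-H526 POU2F3), 4.61 and 3.96 (NCI-H526 HA-POU2F3) and 5.28 and 4.22 (MM1.S POU2AF1). At HSPA1B (chr6:31827214-31827893) the feeding folds were 4.22, 4.30 and 4.54 in 3 SCLC-P pairs, and 7 other DMSO lists held it, with the highest fold of 10.8 in NCI-H526 HA-POU2F3. At JUND (chr19:18280137-18280749), a subunit of AP-1, the treated folds were 5.16 (NCI-H1048 POU2F3), 2.48 (NCI-H929 POU2AF1) and 2.63 (MM1.S POU2AF1). The feeding entries of the myeloma pairs lay 58 and 73 bases from DMSO regions of their own lists whose folds were 4.68 and 4.72, which were higher. At CDK9 (chr9:127785004-127785292) the folds were 2.87, 3.54 and 3.52, with entries 130 to 1306 bases from their own lists. The TMEM182 and MFSD9 promoter (chr2:102736709-102737335) was fed from all 4 lines with folds of 8.91 (NCI-H1048 POU2F3), 5.92 (NCI-H929 POU2AF1), 3.90 (NCI-H526 HA-POU2F3) and 3.97 (MM1.S POU2AF1), and its only other DMSO call was NCI-H929 IRF4, with a fold of 4.17.

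The 3 members of myeloma alone were fed by the same pairs, NCI-H929 POU2AF1, MM1.S POU2AF1 and MM1.S IRF4. They were the promoters of SMO, the Hedgehog signal transducer, and CASP9, the initiator caspase of the mitochondrial pathway, and a region 1.67 kb from CIC. At SMO the folds were 4.94, 4.10 and 3.80. The first SCLC-P member by rank, chr12:66057477-66057790, was fed by the POU2F3, unnamed HA and HA-POU2F3 pairs of NCI-H1048 and had a mean of 241 copies of its 50-base words.

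Just outside the threshold stood regions fed by 2 pairs. The first by rank, chr17:19063674-19063998, had treated folds of 18.8 and 21.7 in the POU2F3 and HA-POU2F3 pairs of NCI-H1048, above any member, and was in 3 other DMSO lists with folds up to 29.6. The second, chr2:32866790-32866990, was fed by the unnamed HA pair (6.68) and MM1.S IRF4 (9.45) and was in 6 other DMSO lists. The third, chrX:49346263-49346496, was fed by both IRF4 pairs, with folds of 10.2 and 6.10. Just inside it, the last members by rank at 3 pairs included CASP9 and CDK9, with highest folds of 3.92 and 3.54.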

How the data were processed

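ChIP-seq peak lists were used as the authors deposited them, 1 per sample. Per the labels and the study's methods, reads were trimmed with Trimmomatic 0.39, aligned to GRCh38/hg38 with BWA, filtered with SAMtools and Picard, and narrow peaks were called with MACS2 at a q-value of 0.05, with blacklisted regions removed. Each deposited entry gives a position, a score, a fold over local background as a ratio, −log10 p and −log10 q, and a summit offset, which 2 lists lack. The files hold no read totals, so depth is given only as list length (1326 to 89850 entries).

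Gained, retained and lost regions were defined by an overlap of 1 base, and merged where they shared a base. Promoters were regions within 1 kb of a protein-coding TSS of GENCODE 44. Satellite arrays and copy numbers were computed from the hg38 sequence, because no repeat annotation was used here, and tRNA genes were taken from RefSeq. Pileups were recovered from fold and −log10 p with a tolerance of 0.002 on that scale. Patterns were searched on both strands within 100 bases of the summit, or of the centre of regions where no list gave a summit. Interval arithmetic was tested on simulated data. Python 3.11.15, NumPy 2.4.6, pandas 2.3.3, SciPy 1.17.1, Numba 0.67.0 and Matplotlib 3.10.9 were used.

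Members were ranked by the number of feeding pairs and then by the mean percentile of fold within their treated lists. The regions named are from the first 12, the first 3 of each feature class, of each tumour class and of those in no DMSO list, members at genes of the lists (up to 3 per list), and the first 3 regions fed by 2 pairs. The members and gene lists were chosen with earlier results of these data known. No test was made, since each condition had 1 library.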

Additional observations from a re-analysis of the deposited data

Results flagged for a closer look

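Recurrent gained regions were also present on sequences that the report does not use. On 79 unplaced or unlocalised sequences of the assembly, 45 of 506 merged gained regions were fed by 3 or more pairs, or 8.89%, with up to 6 pairs, against 0.498% on chromosomes 1 to 22 and X. These 45 lay on 26 of the sequences. There is no control level for this share, and its source was not tested.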

How the results depend on the processing

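The values below are, in order, the number of members and the percentages at promoters, in another pair's DMSO list, with repeated 50-base words and with the octamer core, which were 324, 50.3, 87.7, 8.64 and 5.25. Leaving out each pair in turn gave 71 to 319 members, 29.6% to 53.1%, 85.1% to 91.5%, 6.01% to 14.1% and 3.43% to 7.02%. The lowest number came without NCI-H1048 POU2F3 (71 members, 29.6% promoters, 91.5% in another DMSO list, 14.1% repeated words), and it was 188 (44.1% promoters) without NCI-H929 POU2AF1 and 205 without HA-POU2F3 in NCI-H526. The left-out pair's DMSO list still counted as another pair's list. With no own DMSO region within 1 kb there were 183 members, 33.9% at promoters, 82.5% in another DMSO list and 9.29% with the octamer. With no overlap with any DMSO list of the same line there were 89, with 33.7%, 58.4% and 14.6% repeated words. At a −log10 q of at least 5 there were 30, with 20%, 93.3% and 26.7%. Regions fed by 2 or more pairs numbered 3449, with 41.3%, 78.8% and 9.74% octamer, and those fed by 4 or more numbered 33, with 30.3% and 15.2% repeated words. In 3 or more lines there were 202, with 4.95% repeated words. With the 1326 strongest treated regions of every pair there were 4, of which 25% were promoters, 100% in another DMSO list, 25% repeated and 0 with the octamer. A TSS of any gene gave 56.8% promoters, covering 50% of the member gave 83.3% in another DMSO list, and the octamer anywhere in the region gave 11.4%. Without members near satellites or with repeated words, a setting chosen after seeing the data, 58.4% were promoters. The cause of these shifts was not tested.

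No paired test was made, and no result here comes from a test. The treated and control lists were matched by pair throughout, and no test across the 10 pairs was run. The share with over 50% masked bases was not run, because the reference used has no lower-case bases, and copies of 50-base words took its place. Sequencing depth cannot be read from the lists. A region missing from a short list is only known to be below that list's threshold.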
